A study of Arabidopsis thaliana with 18 samples.

Results

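New H3K9ac islands are stretches of the Arabidopsis genome where a peak of acetylated histone H3 lysine 9 was called in all 4 libraries of the mutants hda9-1 and pwr-2 and in neither library of the Columbia wild type (WT). Peaks of the 6 H3K9ac lists were merged wherever they shared at least 1 bp, which gave 12753 union regions. Of these, 327 (2.56%) met the rule. The reverse set, with a peak in both WT libraries and in no mutant library, held 44 regions (0.345%). The rule was built on the presence of called peaks, so the absence from WT and the presence in the mutants are not findings, and they are described below without a test. "New" means here that no WT peak was called.

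The study used chromatin immunoprecipitation and sequencing of whole seedlings in the Col ecotype. They were harvested at 10 days after growth under long days (16 h light, 8 h dark) at 23 °C. WT, hda9-1 and pwr-2 each had 2 H3K9ac libraries and 1 H3K14ac library, and the 9 input samples of the series were not analysed here. Each mutant is represented by 1 allele, so what the allele does cannot be told apart from what its line carries elsewhere. Seedlings hold many cell types, so a peak in few cells and a weak peak in all cells cannot be told apart. The labels call the H3K9ac replicates biological without naming separate plantings, so p-values measure only the spread between these libraries.

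Acetyl groups on lysine 9 and lysine 14 of histone H3 are set by histone acetyltransferases and removed by histone deacetylases, and both marks are typical of the start of transcribed genes. HDA9 is a deacetylase of the RPD3 class, a family related to yeast Rpd3. POWERDRESS (PWR) is a SANT-domain protein known to interact with HDA9, and the series was designed to ask how both affect H3 acetylation.

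The libraries were unequally deep. Reads inside H3K9ac peaks ranged from 1948253 to 2223676 in WT, from 3757931 to 8873855 in pwr-2 and from 12265470 to 18171153 in hda9-1. The H3K14ac libraries held 667780 reads in peaks in WT, 875104 in hda9-1 and 1090139 in pwr-2. In peaks with the same position in both replicates, a choice that favours agreement, read numbers scattered 1.37 times as much as sampling noise in WT, 2.03 times in pwr-2 and 1.07 times in hda9-1 (variance ratios). The 7 seedling marker genes of the photosynthetic apparatus all lay under H3K9ac regions, 5 of them with peaks in all 6 libraries. All 4 housekeeping genes and 1 of 4 marker genes of other tissues had peaks in all 6, and none of these 15 genes was under a new island.

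The islands were narrow. Their median width was 1000 bp, with a range of 400 to 5800 bp, against a median of 2800 bp in the 8332 regions shared by all 6 libraries. A total of 173 islands (52.9%) were at most 1000 bp wide and 53 (16.2%) exceeded 2000 bp. In each of the 4 mutant libraries the median covered length was 800 bp.

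Read numbers per island differed between libraries as their depth did. The reads of an island are those of the peaks called in that library. Stretches of the island without a called peak add none. The median island held 362 reads in hda9-1 replicate 1 (range 166 to 1568), 549 in hda9-1 replicate 2 (168 to 2155), 120 in pwr-2 replicate 1 (48 to 467) and 274 in pwr-2 replicate 2 (120 to 1092). As reads per 1000000 reads in peaks (RPM), the medians were 29.5, 30.2, 31.9 and 30.9 in the same order. After this scaling the mutant libraries were thus alike at the median. Within their own libraries the islands were of ordinary density. Their median was 439, 623, 150 and 325 reads per kb of peak, against 451, 626, 154 and 347.5 over all peaks of the same library. The median island thus lay slightly below the median peak in density, and was narrower.

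The islands with the highest RPM in their weakest mutant library, among those over a protein-coding gene with a symbol, are shown in the plot of 12 islands by library. The first lay over CYP71 (AT3G44600), a nuclear cyclophilin with WD40 repeats that binds histone H3 (chromosome 3, 16168601 to 16171800, TAIR10, as for all positions here). It held 796 and 1362 reads in hda9-1 and 236 and 660 reads in pwr-2. These were 64.9 and 75.0 RPM in hda9-1 against 62.8 and 74.4 RPM in pwr-2, so the genotypes overlapped. Only 704 bp of the island's 3200 bp overlapped the gene, and at another place the gene touched a peak of WT replicate 2 over 666 bp, 3000 bp from the island's edge.

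The island over AAE13, which encodes a malonyl-CoA synthetase, and its neighbour AT3G16160 held 695 and 1243 reads in hda9-1 and 218 and 549 in pwr-2 (chromosome 3, 5474601 to 5477000). Elsewhere AAE13 touched a peak of WT replicate 2 over 949 bp. The island of NRPE7, a subunit of the plant-specific RNA polymerase V, held 638 and 873 reads in hda9-1 and 226 and 441 in pwr-2 (chromosome 4, 8405601 to 8407800). At NRPE7 the genotypes overlapped, at 52.0 and 48.0 RPM in hda9-1 against 60.1 and 49.7 RPM in pwr-2. GA2OX2, a gibberellin 2-oxidase that inactivates the hormone, had 565 and 1451 reads in hda9-1 and 250 and 665 in pwr-2 (chromosome 1, 10535001 to 10538600). Its hda9-1 libraries differed, and the peak covered 1800 bp in replicate 1 and 3600 bp in replicate 2.

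The amino acid transporter gene UMAMIT21 shared its island with AT5G64690 and AT5G09245 (chromosome 5, 25863801 to 25868000), with 691 and 1048 reads in hda9-1 and 372 and 503 in pwr-2. VPS54, a subunit of a vesicle tethering complex, shared one with AT4G19500 (chromosome 4, 10623401 to 10627200), with 650 and 948 reads in hda9-1 and 399 and 602 in pwr-2. It overlapped only 124 bp of VPS54, which elsewhere touched peaks of both WT libraries over 1000 bp each. Its overlap with AT4G19500 was 1639 bp, and that gene touched no WT peak. In both islands pwr-2 replicate 1 was the highest library, at 99.0 and 106 RPM, and its peak was also the widest. At UMAMIT21 the other 3 libraries lay between 56.3 and 57.7 RPM, so 1 library stands apart there.

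CHR5, a chromatin remodeller of the CHD family, had an even island, with 552 and 889 reads in hda9-1 and 177 and 410 in pwr-2, or 45.0, 48.9, 47.1 and 46.2 RPM in the same order (chromosome 2, 5555601 to 5556600). The island covered one end of a gene of 12507 bp that touched no WT peak, and the nearest WT peak was 13200 bp away. HTH (HOTHEAD), required to keep floral organs from fusing, had 564 and 975 reads in hda9-1 and 165 and 404 in pwr-2. At ABCF4, a soluble ABC protein, the numbers were 520 and 767 in hda9-1 against 184 and 426 in pwr-2. At DHAR2, a dehydroascorbate reductase gene that shares its island with AT1G75280 and AT1G75290, pwr-2 replicate 1 stood apart, with 157 reads (41.8 RPM) against 92.1 RPM in pwr-2 replicate 2 and 85.0 and 79.9 RPM in hda9-1.

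**Figure D1:**
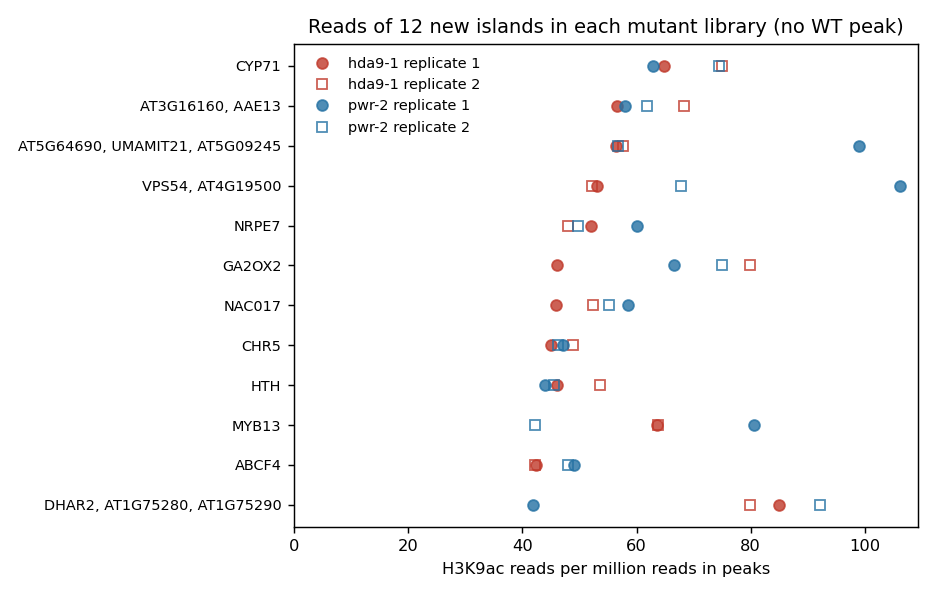
H3K9ac reads in RPM (x axis) in the 12 new islands with the highest RPM in their weakest mutant library, named by the genes they overlap (y axis); circles are replicate 1, squares replicate 2, red hda9-1 and blue pwr-2. Values lie between 41.8 and 106. The ranges of hda9-1 and pwr-2 overlap in some of these islands and not in others, which was not counted over all islands.

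Among the islands that were wide in every mutant library, 3 over genes without a symbol led by their smallest covered length. The island of AT5G01740 covered 5200 bp in all 4 mutant libraries (chromosome 5, 278601 to 283800), with 1568 and 2155 reads in hda9-1 and 467 and 1003 in pwr-2. It reached to within 1000 bp of a WT peak. That of AT2G37130 covered 3400 bp in all 4 (chromosome 2, 15598801 to 15602200), and that of AT2G05540 between 2800 and 3800 bp. The pseudogene AT1G35465 carried an island of 2800 bp, covered over 2200 to 2800 bp.

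A shallower library misses weaker peaks, so the reads of the islands were set beside what the WT lists contained. The mutant libraries held between 1.69 and 9.33 times as many reads in peaks as a WT library. In the 8332 regions of all 6 libraries the share of reads was similar, with a median ratio of WT to mutant RPM between 1.00 and 1.06 over the 8 pairs of libraries. The smallest WT peaks of 600 bp held 52 reads in replicate 1 and 53 in replicate 2, which is 26.7 and 23.8 RPM. The smallest of that width held 17.2 and 15.6 RPM in hda9-1 against 20.2 and 17.5 in pwr-2. WT peaks of this width thus began at a higher level than those of each mutant library. The 20 islands covered over exactly 600 bp in all 4 mutant libraries had medians of 23.2 and 23.5 RPM in hda9-1 against 26.6 and 24.9 in pwr-2, which lay below or near the level where WT peaks began.

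Each island's mutant reads were then scaled to the depth of each WT library and compared with WT peaks of the same width. In all 4 mutant libraries and against both WT libraries, 64 islands (19.6%) reached at least the smallest WT peak of their width, 23 (7.03%) the 5th percentile and 16 (4.89%) the 10th percentile. For single libraries the share that reached the smallest WT peak went from 29.4% (hda9-1 replicate 2 against WT replicate 1) to 84.1% (pwr-2 replicate 1 against WT replicate 2). For the other 263 islands, the scaled reads of at least 1 mutant library fell below the smallest peak of that width in at least 1 WT library, so an equal WT signal may not have been detectable at WT depth. When mutant peaks were kept only where their scaled reads reached the 10th percentile of all WT peaks, 50 islands met the rule in place of 327. How far depth accounts for the missing WT peaks was not tested.

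**Figure D2:**
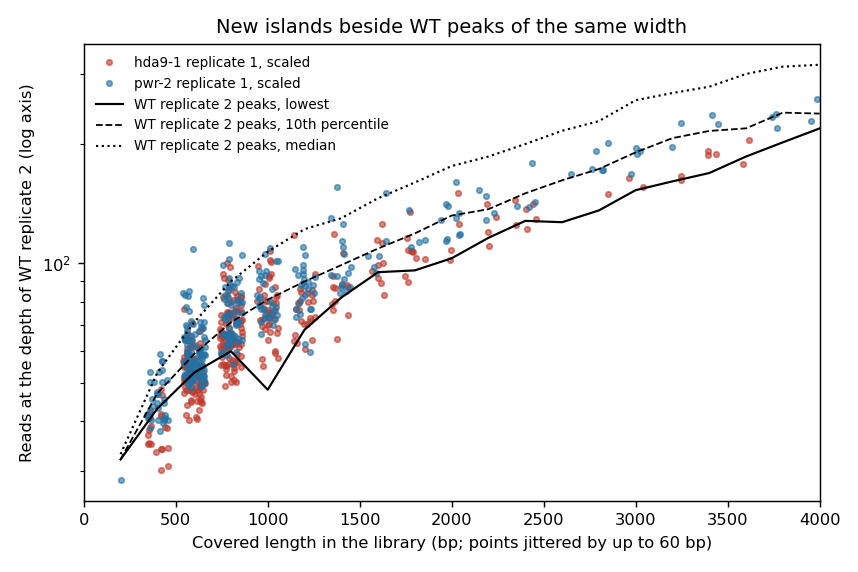
Reads of the new islands in hda9-1 replicate 1 (red) and pwr-2 replicate 1 (blue), scaled to the reads in peaks of WT replicate 2 (y axis, log scale), against the covered length in bp (x axis, up to 4000 bp); black lines give the lowest, 10th percentile and median of the WT replicate 2 peaks of each width. Few islands lie above the median line. Of all 327 islands, 64.5% of the hda9-1 replicate 1 values and 84.1% of the pwr-2 replicate 1 values reach the lowest line.

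The 16 islands past the 10th percentile included those of NAC017, CHR5, ABCF4 and AT4G19500 with VPS54. HBT, the CDC27 subunit of the anaphase-promoting complex that drives cell division, was also among them, with 556 and 715 reads in hda9-1 and 173 and 374 in pwr-2 (chromosome 2, 8636001 to 8637000). So was RIN3, named for its interaction with the immune receptor RPM1, with 506 and 645 reads in hda9-1 and 141 and 328 in pwr-2 (chromosome 5, 20892601 to 20893600). The others lay over ARABIDILLO-2 and EDA14, over AT2G32905 and AT2G32910, and over AT2G14835, AT2G17410, AT3G63070, AT4G01810, AT4G11450, AT5G17840, AT5G35935 and AT5G48655. Outside their islands, NAC017, ABCF4, VPS54, EDA14, AT3G63070 and AT4G01810 touched a WT H3K9ac peak. It covered 942 bp of NAC017 in WT replicate 2 and 940 bp of ABCF4 in WT replicate 1. Of these 16 islands, 15 carried an H3K14ac peak in at least 1 genotype, against 266 of all 327 islands (81.4%) and 84.5% of all union regions. In WT 5 of the 16 carried one (31.2%), against 47.1% of all islands.

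Genes of pathways linked to HDA9, PWR or seedling growth were looked up next. Of 100 genes in 9 lists, 2 were under an island (2%), against 410 of 37899 annotated genes (1.08%) and 1.34% of protein-coding genes, so the count was near the background. No gene of the lists for warm temperature and heat (10 genes), flowering time (21), senescence (10), seed maturation (7), floral organ identity (9), shoot meristem (8) or immunity (8) was under an island. These are 7 of the 9 lists, and each of the remaining lists had 1 gene under an island.

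CYP707A3, which encodes a hydroxylase that breaks down abscisic acid, was the 1 gene of 17 in the list for abscisic acid, drought and cold. Its island held 590 and 895 reads in hda9-1 and 154 and 690 in pwr-2 (chromosome 5, 18367801 to 18371000). In pwr-2 the replicates differed, with 1400 bp covered in replicate 1 and 3200 bp in replicate 2. HAF01, a histone acetyltransferase of the TAF1 family, was the 1 gene of 10 in the list of the acetylation machinery, beside AT1G06613 (chromosome 1, 11855801 to 11856800). Its island was even, with 363 and 631 reads in hda9-1 and 110 and 262 in pwr-2, or 29.6, 34.7, 29.3 and 29.5 RPM in the same order. It touched an H3K14ac peak in hda9-1 (26 reads) and in neither WT nor pwr-2.

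Of 33 gene families defined by their symbols, 23 had no gene under an island, among them SAUR (80 genes), WRKY (71), TBL (45), IAA (32), CIPK (26) and the 326 microRNA genes. Over all families 14 of 1599 memberships (0.876%) fell under an island, close to the 1.08% of all genes.

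The NAC family of transcription factors had 4 of 100 genes under an island, which is the highest number of the families. NAC017 is an activator of the response to mitochondrial stress, and its island held 563 and 952 reads in hda9-1 and 220 and 489 in pwr-2 (chromosome 1, 12451401 to 12452800). NAC13, which acts in the same mitochondrial response, held 287 and 494 reads in hda9-1 and 330 and 286 in pwr-2 (chromosome 1, 11909201 to 11912400). In pwr-2 replicate 1 its peak covered 3000 bp, against 600 to 800 bp in the other libraries, so 1 library sets the width of the NAC13 island. NAC046, which promotes leaf senescence, shared its island with AT3G04050 and held 287 and 1672 reads in hda9-1 and 284 and 747 in pwr-2. Here hda9-1 replicate 1 was the narrow library, with 800 bp covered against 4200 bp in replicate 2. SOG1, the plant regulator of the DNA damage response, had a small and even island of 600 bp in every library, with 283 and 423 reads in hda9-1 and 101 and 216 in pwr-2.

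The other families had 1 or 2 genes each. XTH7, which encodes a xyloglucan-modifying enzyme of the cell wall, was 1 of 33 XTH genes, with 288 and 1066 reads in hda9-1 and 325 and 456 in pwr-2. MYB13 and MYB72, a regulator of iron deficiency in roots, were 2 of 131 MYB genes. MYB13 held 780 and 1158 reads in hda9-1 and 303 and 375 in pwr-2, and its pwr-2 libraries spanned those of hda9-1 in RPM. The island of MYB72 also touched NF-YC2, AT1G56165 and AT1G56180, and it held 354 and 852 reads in hda9-1 and 124 and 337 in pwr-2.

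The mitochondrial chaperone gene CLPB4 was 1 of 29 HSP genes, with 314 and 478 reads in hda9-1 and 107 and 249 in pwr-2 and a covered length of 800 bp in every mutant library. AT2G41480, the peroxidase gene PRX25, and the peptide gene RALFL25 were single genes of their families as defined by symbol, as were GA2OX2, UMAMIT21 and CYP707A3. Genes without a matching name, such as mtHsc70-1 under another island, were not counted in any family. With so few genes per family, no family can be set apart from the background of 1.08% by these counts.

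Some further islands were picked after their values had been seen and are given as single cases. SPT16, a subunit of the histone chaperone FACT, held 512 and 588 reads in hda9-1 and 152 and 289 in pwr-2 (chromosome 4, 6605401 to 6606400). CHR11, an ISWI-type remodeller, held 366 and 554 in hda9-1 against 88 and 276 in pwr-2 (chromosome 3, 1941001 to 1941800). DML2, a DNA glycosylase that removes methylated cytosine, held 417 and 552 in hda9-1 against 158 and 529 in pwr-2 (chromosome 3, 3087801 to 3089800), and its edge was only 400 bp from a WT peak. SGF29b, a component of the SAGA acetyltransferase complex, held 453 and 623 in hda9-1 against 142 and 222 in pwr-2. MOM, a silencing factor, held 363 and 478 reads in hda9-1 and 128 and 279 in pwr-2. POLD3, a DNA polymerase delta subunit, had an island of 400 bp in every mutant library, with 166 and 236 reads in hda9-1 and 68 and 125 in pwr-2. In MOM and CHR11 an H3K14ac peak was present in all 3 genotypes, while in SPT16 it was called in hda9-1 alone (27 reads).

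Most islands touched a gene, as did most H3K9ac regions (97.6% of islands against 97.3% of all union regions). Only 8 of the 327 islands touched no annotated gene, 238 touched 1 gene and 81 touched 2 or more (71 touched 2 and 10 touched at least 3). A protein-coding gene was touched by 305 islands (93.3%), and 117 (35.8%) lay wholly inside 1 gene, with no such shares taken over all regions. The 410 genes under islands included 367 protein-coding genes and 19 long non-coding RNAs. Protein-coding genes made up 89.5% of them, against 85.3% of genes under any union region.

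Of the 367 protein-coding genes, 333 (90.7%) had at least 50% of the 500 bp at 1 end covered by an island, against 96.1% of genes under regions of all 6 libraries, which are wider, and 93.2% under regions with 4 mutant peaks and 1 WT peak. Under regions with 3 mutant peaks and no WT peak it was 87.7%. The annotation used here gives no strand, so the start and the stop of a gene could not be told apart. Genes under islands were longer, with a median of 3099 bp against 2343 bp under regions of all 6 libraries and 2857 bp under regions with 4 mutant peaks and 1 WT peak. Under regions with 3 mutant peaks and no WT peak the median was 2722 bp. For 75 of the 367 genes (20.4%) another part of the gene touched a WT H3K9ac peak. Their median length was 3972 bp, but such a gene must reach both an island and a WT peak, so the grouping itself favours long genes. For the other 292 genes no WT peak touched the gene.

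By the rule no island touches a WT peak. The nearest one was at a median distance of 3000 bp, with a range of 200 bp to 79800 bp. It was more than 1000 bp away for 287 islands (87.8%) and more than 5000 bp away for 78 (23.9%), as the plot of distances shows. Islands were spread over the chromosomes as all regions were, with 84 on chromosome 1 (25.7%, against 26.2% of all union regions) and 42 on chromosome 4 (12.8%, against 15.4%). A few were neighbours, and 15 pairs of successive islands were at most 10000 bp apart. On chromosome 1, the genes FMO GS-OX2 and FMO GS-OX4, which encode enzymes of glucosinolate side-chain oxidation, both had an island.

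**Figure D3:**
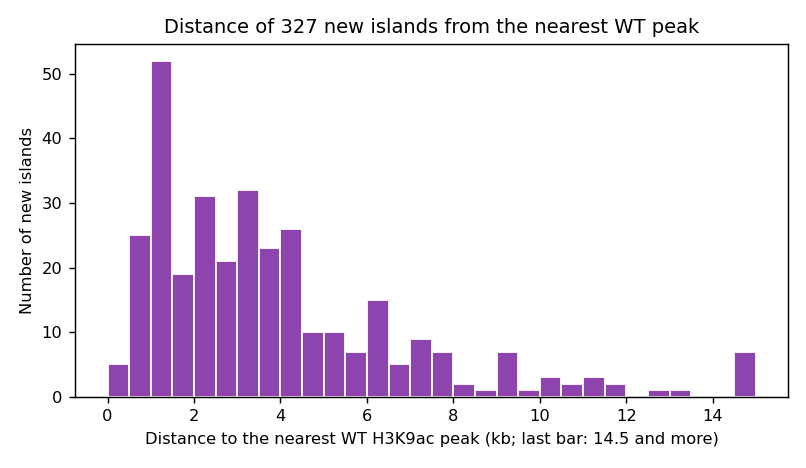
Number of new islands (y axis) by distance from the nearest WT H3K9ac peak in kb (x axis, steps of 0.5 kb, the last bar holding all larger distances). The median is 3000 bp, and 40 of the 327 islands are at most 1000 bp from a WT peak.

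H3K14ac was measured in libraries the rule had not used, and it tells what the other mark did at the islands. With 1 library per genotype there is no replicate check. An H3K14ac peak touched 154 of the 327 islands in WT (47.1%, 95% Wilson interval 41.8% to 52.5%), 234 in hda9-1 (71.6%, 66.4% to 76.2%) and 232 in pwr-2 (70.9%, 65.8% to 75.6%). These intervals cover counting error only. Over all union regions the shares were 69.0% in WT, 78.8% in hda9-1 and 78.5% in pwr-2. In the 364 regions with 3 mutant peaks and no WT peak the WT share was 47.0%, close to that of the islands. So 154 islands without a WT H3K9ac peak did carry a WT H3K14ac peak.

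Of the islands, 135 (41.3%) carried H3K14ac in all 3 genotypes, 61 (18.7%) in none, and 68 (20.8%) in both mutants and not in WT, against 10.1% of all union regions. The same pattern was found in 18.1% of the regions with 4 mutant peaks and 1 WT peak, in 17.58% of those with 3 mutant peaks and no WT peak and in 23.1% of those with peaks in hda9-1 alone, so it was about as frequent in the classes most like the islands. The reverse, H3K14ac in WT and in neither mutant, held for 3 islands (0.917%), against 1.61% of all union regions, so it was rare throughout. Among the 173 islands with no WT H3K14ac peak, both mutants had one in 39.3%, against 53.9% of such regions among those with H3K9ac in all 6 libraries and 32.6% among all union regions. Both mutant H3K14ac libraries were deeper than that of WT, and the part of depth in this difference was not tested.

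The WT share was also lower among regions of like width. Among islands of 400 to 800 bp, 56.2% carried WT H3K14ac, against 81.1% of the 244 regions of all 6 libraries with the same width and 68.3% of those with 4 mutant peaks and 1 WT peak. Among islands of 1800 bp and over it was 40.5%, against 83.7% and 56.1%. No test was made of these differences. The wider islands carried H3K14ac less often than the narrow ones, in hda9-1 (60.8% against 78.6%) and pwr-2 (63.5% against 75.0%) too. Regions with 4 mutant peaks and 1 WT peak had the same order, at 69.7% against 90.8% in hda9-1 and 72.2% against 90.1% in pwr-2. In regions of all 6 libraries it was 91.3% against 95.9% in hda9-1 and 90.9% against 95.5% in pwr-2.

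Where all 3 genotypes had a peak, the median H3K14ac level was not higher in the mutants. Over these 135 islands the median was 61.4 RPM in WT, 57.1 in hda9-1 and 56.9 in pwr-2, counting whole peaks that touch the island. Both mutants lay above WT in 38 of the 135 islands and both below it in 68 (50.4%, against 42.6% of all union regions with a peak in all 3). The median log2 ratio to WT was -0.14 in hda9-1 and -0.14 in pwr-2, against -0.07 and -0.09 over all union regions.

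The islands with the highest H3K14ac in both mutants and none in WT included that of NRPE7, with 79 reads in hda9-1 and 96 in pwr-2. At LOH2, a ceramide synthase gene, the peaks held 79 reads in hda9-1 and 75 in pwr-2, and the H3K9ac island 370, 604, 112 and 307 reads (chromosome 3, 6670601 to 6671600). At ERD2, the gene of a receptor that retains proteins in the endoplasmic reticulum, they held 64 and 84 reads (chromosome 1, 10260001 to 10261200). AT1G09794, AT4G11790 and the transcribed pseudogene AT3G30122 complete the set, with 61 to 76 reads in hda9-1 and 61 to 109 in pwr-2. The opposite case was the island of AAE13 with AT3G16160, where H3K14ac held 161 reads in WT, 122 in hda9-1 and 172 in pwr-2. No WT H3K9ac peak was called over that island, although AAE13 touched one of WT replicate 2 elsewhere. CLPB4 likewise had 89, 86 and 88 H3K14ac reads in the 3 genotypes.

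**Figure D4:**
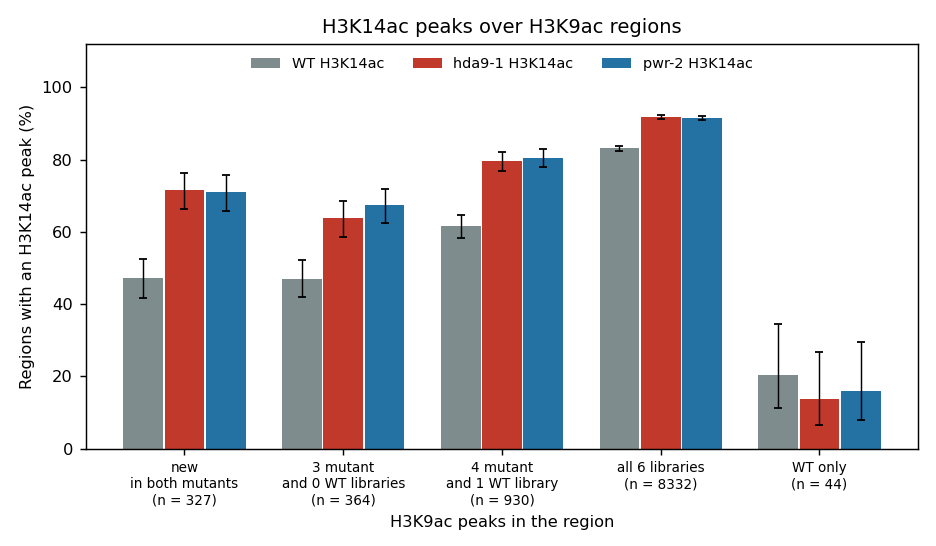
Share of regions with an H3K14ac peak in percent (y axis) in WT (grey), hda9-1 (red) and pwr-2 (blue), for regions grouped by the libraries with an H3K9ac peak (x axis, with the number of regions); error bars show the 95% Wilson interval, for counting error alone. New islands carry H3K14ac in 47.1% in WT and in 71.6% and 70.9% in the mutants, below regions of all 6 libraries in each genotype.

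Whether the islands were stronger in hda9-1 or in pwr-2 was not part of the rule, and it was tested. The rule and the tested regions both require a peak in all 4 mutant libraries, however. Regions without a WT peak and with peaks in both libraries of 1 mutant alone (117 for hda9-1, 35 for pwr-2) were left out. This choice favours likeness between the mutants. All 9589 regions with a peak in each of the 4 mutant libraries were fitted together with edgeR's quasi-likelihood test on reads, and p-values were adjusted by Benjamini-Hochberg over all of them. The reads were those of each library's own called peaks, so they can come from unlike stretches of a region. No island passed an adjusted p of 0.05 (0 of 327), as did no region of all 9589 (0.0% higher in hda9-1 and 0.0% higher in pwr-2). At an unadjusted p under 0.05 there were 26 islands, and 540 of all regions (5.63%). DESeq2 called 4 islands, all higher in pwr-2, against 24 regions higher in pwr-2 (0.25%) and 43 higher in hda9-1 (0.448%) overall. It gave no adjusted p for 251 of the 327 islands. In simulated counts for this comparison edgeR called 50% of regions changed 2-fold, 4% of those raised 1.5-fold and 100% of those raised 4-fold. The simulation gave every region the same dispersion and changed regions drawn from all 9589, not from the islands. In the real fit the smallest adjusted p of any region was 0.500 (edgeR). The simulated shares therefore need not hold for the islands, and the absence of calls does not show that the mutants were equal there.

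The median log2 difference of hda9-1 over pwr-2 was -0.06 over the islands and 0.00 over all tested regions, against -1.45 to 0.88 among the 7 islands named below. Islands took up 1.08% and 1.104% of the reads in peaks in hda9-1 and 1.21% and 1.13% in pwr-2. The means were 1.09% ± 0.0202 in hda9-1 and 1.17% ± 0.0626 in pwr-2 (SD, n = 2 each), with an exact permutation p of 0.33 (two-sided), the smallest that 2 against 2 libraries allow. The genotypes did not overlap, but a design of this size cannot pass 0.05.

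The lowest unadjusted p for higher reads in pwr-2 was at AT3G05400 (chromosome 3, 1549601 to 1552400), with 22.6 and 30.4 RPM in hda9-1 against 75.6 and 72.2 in pwr-2. The log2 difference was -1.45 (SE 0.19, edgeR, adjusted p = 0.540), and DESeq2 gave an adjusted p of 3.18e-05. Its peaks covered 800 and 1200 bp in hda9-1 against 2600 and 2800 bp in pwr-2. Per covered bp the difference turned to 0.13 (edgeR, adjusted p = 0.929).

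The same held for LTL1, a lipase gene (chromosome 3, 1132601 to 1136200), with 37.4 and 39.1 RPM in hda9-1 against 77.4 and 80.9 in pwr-2 (log2 -1.02, SE 0.14, edgeR, adjusted p = 0.540). Its covered length was 1600 bp in both hda9-1 libraries and 2800 and 3600 bp in pwr-2. An island over no gene, at 16076401 to 16079000 on chromosome 3, had 38.9 and 34.0 RPM in hda9-1 against 68.9 and 68.1 in pwr-2 (log2 -0.89, SE 0.15, edgeR, adjusted p = 0.596). In these 3 islands the genotypes did not overlap in RPM or in width, while their unscaled read numbers did overlap, and per covered bp the sign turned. None of the 3 touched an H3K14ac peak in any genotype.

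Of the islands leaning to hda9-1, UBC30, which encodes a ubiquitin-conjugating enzyme, had the lowest unadjusted p (chromosome 5, 22729201 to 22730800). It had 40.0 and 40.7 RPM in hda9-1 against 22.6 and 22.1 in pwr-2 (log2 0.88, SE 0.13, edgeR, adjusted p = 0.540), and its peaks covered 1600 bp in each hda9-1 library and 600 bp in each of pwr-2. AT1G09794 followed (log2 0.81, SE 0.14, edgeR, adjusted p = 0.606), then an island over no gene on chromosome 1 and the island of TSA1 and FBL17. In these 4 islands too the sign turned per covered bp, to values from -0.37 to -0.51. Over all islands, 29 were wider in both hda9-1 libraries than in both pwr-2 libraries, and 13 the reverse (8.87% and 3.98%). Over all 9589 regions these shares were 19.6% and 4.43%, so wider peaks in hda9-1 were found across all regions.

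**Figure D5:**
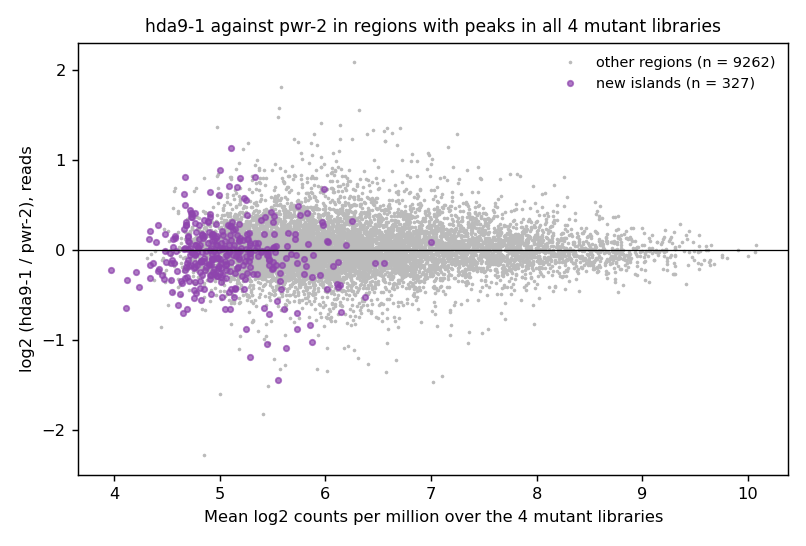
Log2 ratio of reads in hda9-1 over pwr-2 (y axis) against the mean log2 CPM of the 4 mutant libraries (x axis); purple points are the 327 new islands and grey points the other regions with a peak in all 4 mutant libraries. The islands lie at the low end of the x axis and spread around 0, with AT3G05400 lowest at -1.45.

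The islands with the fewest reads just inside it were those of EMB2423, with 48 reads over 200 bp in pwr-2 replicate 1, of AT2G02148, with 64 reads over 400 bp, and of a stretch over no gene on chromosome 1, with 65 reads over 400 bp. Just outside lay 930 regions with a peak in all 4 mutant libraries and in 1 WT library, 659 of them with WT replicate 2 and 271 with WT replicate 1. Their WT peak held a median of 85 reads. The regions of AT1G33360 (32 reads in WT replicate 2), SEC3A (33) and ARP2 (44) had the fewest WT reads, while SEC3A held 530 and 775 reads in hda9-1 and 175 and 417 in pwr-2. Another 364 regions had a peak in 3 mutant libraries and in no WT library. Without WT replicate 2 the number of islands would be 1007, without WT replicate 1 it would be 609, and without pwr-2 replicate 1 it would be 628, so each of these libraries sets the count by more than 1.5 times. Leaving out a library removes 1 condition of the rule, so a rise was built in and only its size is informative.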

How the data were processed

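H3K9ac (6 libraries) and H3K14ac (3 libraries) were read from the deposited peak lists. Per the submitters' processing notes, the tools were Bowtie and SICER and the build TAIR10; no source used here gives their versions or thresholds. The authors' lists hold positions with 1 whole number each, called in each library separately and taken here as the read count of the peak, since it rises with width (Spearman correlation 0.797 to 0.938). Peaks start on steps of 200 bp.

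Genes came from RefSeq TAIR10.1 (37899 genes on 5 nuclear chromosomes). Its name differs from the peaks' build, so no gene position is printed. Peak bases in genes were highest with no shift in each of the 6 H3K9ac libraries, from 69.6% to 84.9%, against at most 71.7% when shifted by 1000 bp.

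Peaks were merged with Python 3.11.15. Counts of regions with peaks in all 4 mutant libraries were tested with edgeR 4.0.16 (TMM factors, no block, filterByExpr) and DESeq2 1.42.0 as an alternative, after a test on simulated data. Scaled reads were divided by the ratio of reads in peaks. The genes named were the 12 islands with the highest smallest RPM over a symbol, the 6 widest, those over 12 fixed lists or 33 families, 6 with H3K14ac in both mutants alone, 4 per direction between mutants (1 of them is not reported here), and 3 on each side of the rule. The 16 deepest islands, SPT16, CHR11, DML2, SGF29b, MOM, POLD3 and the FMO GS-OX genes were added after their values were seen. Members and lists were chosen with earlier results of these data known. Alternatives covered merging, thresholds, depth, left-out libraries, normalization, the low-count filter and overlap minimums. The planned promoter motif search was not run, since no sequence was used here.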

Additional observations from a re-analysis of the deposited data

How the results depend on the processing

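The number of islands stayed within 1.5 times of 327 with peaks merged over 200 or 600 bp, a stricter peak threshold, or 1000 bp from any WT peak, although with the sparsest 10% of peaks left out only 239 of its 323 islands overlapped the original ones. With mutant peaks held to the 10th percentile of WT reads at WT depth it fell to 50, with 73 genes under them, and H3K14ac shares of 26% in WT, 58% in hda9-1 and 64% in pwr-2. That limit was the same read number for peaks of every width, and these 50 islands had a median width of 2300 bp against 1000 bp. Depth and width thus cannot be told apart in these shares. Leaving out each library in turn gave 355 to 1007 islands and 444 to 1385 genes, with H3K14ac shares of 43.9% to 60.1% in WT, 67.3% to 80.0% in hda9-1 and 66.8% to 79.4% in pwr-2. Without the sparsest peaks these shares were 52.9%, 78.0% and 77.7%, and with at least 50% of the island required in H3K14ac they were 34.9%, 52.0% and 55.0%. Requiring 50% of a gene left 104 genes. Between the mutants DESeq2 called 4 islands, and every edgeR alternative called 0. Per covered bp the difference was 0.13 for AT3G05400, 0.10 for LTL1, 0.13 for the island over no gene on chromosome 3, -0.40 for UBC30, -0.51 for AT1G09794, -0.42 for the island over no gene on chromosome 1 and -0.37 for TSA1 with FBL17, each opposite to that on reads. With the replicate number as a block 0 islands were called, as without it. Same-numbered libraries share only a number here, and their deviations correlated at 0.157 over 9589 regions. The causes of these changes were not tested. By construction the depth and overlap limits make smaller sets, and leaving out a library makes larger ones. The smallest 600 bp peaks listed in WT held 52 and 53 reads, which limits what the WT lists can show at the islands.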
